A study of Mus musculus with 6 samples.

Results

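Extracellular matrix proteins and the enzymes that build and cut the matrix were represented by 146 accessible regions at 77 genes, out of 52957 regions in the whole table, of which 13960 carried a gene symbol. Members were chosen by gene symbol alone. Structural proteins were collagens, laminins, fibrillins, fibulins, fibronectin, Sparc, thrombospondins, tenascin C, biglycan, perlecan and nidogens. The crosslinking class took in lysyl oxidases and lysyl hydroxylases. Prolyl hydroxylases were placed there too, so its counts are not of crosslinking enzymes alone. The protease class took in matrix metalloproteinases, ADAMTS proteins and their TIMP inhibitors. The structural class held 75 regions at 39 genes, the crosslinking class 16 regions at 9 genes and the protease class 55 regions at 29 genes. The rule matched 140 protein-coding symbols in RefSeq, and the genes beyond these 77, Eln, Postn, Dcn, Lum, Thbs2, Lama4, Lamb1, Loxl2 and Loxl3 among them, are not analysed here.

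The extracellular matrix is the protein mesh that cells secrete around themselves, and fibroblasts make most of it in connective tissue. Collagen chains are hydroxylated inside the cell by prolyl 4-hydroxylases and lysyl hydroxylases, trimmed after secretion, and joined to each other and to elastin by lysyl oxidases. Matrix metalloproteinases and ADAMTS proteases cut matrix proteins, and TIMPs are secreted proteins that block them.

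Open chromatin was profiled by ATAC-seq, where the Tn5 transposase cuts and tags exposed DNA, in 6 libraries of NIH3T3, an immortal mouse embryonic fibroblast line. The 3 active libraries came from stable lines with an active T3H48-HHR ribozyme in intron 3 of Actg1, the gamma-actin gene, placed there to cut the Actg1 pre-mRNA. The 3 inactive libraries came from stable lines with the inactive T3H48-HHR ribozyme at the same place. Both groups thus carry an inserted ribozyme and differ by label in its activity. Whether a group's libraries are separate cultures or separate lines is not in the labels, so p-values cover the spread among these 6 libraries alone, possibly technical, and ribozyme activity cannot be told apart from line identity. Values listed for single libraries are normalised reads per region in the order of the replicate numbers. A lower value cannot tell fewer cells with an open region from less open DNA in each cell. DNA copy number, which also bears on the reads of a region, was not tested.

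The sequence in front of the start site is shown for 8 member genes whose start-site region changed by 1 of the 2 tests below or lay in the metalloproteinase cluster of chromosome 9. These are the 250 bases before the RefSeq start on the GRCm38.p6 build, read 5′ to 3′ on the strand of the gene, whereas the region coordinates further on are on mm39. Capitals mark motif letters found on either strand. The motif searched for AP-1, the dimer of Fos and Jun proteins, was TGANTCA. The core promoter motif called the TATA box was searched as TATAAA. The letters searched for the TEAD factors of the Hippo pathway were GGAATG. The GC box, bound by Sp factors, was searched as GGGCGG, and no matches overlap in the 8 sequences. The first 3 are Mmp13 chr9:7272264-7272513 on the plus strand, Mmp3 chr9:7445572-7445821 on the plus strand and Mmp10 chr9:7502092-7502341 on the plus strand, genes for collagenase-3 and the stromelysins.
Mmp13: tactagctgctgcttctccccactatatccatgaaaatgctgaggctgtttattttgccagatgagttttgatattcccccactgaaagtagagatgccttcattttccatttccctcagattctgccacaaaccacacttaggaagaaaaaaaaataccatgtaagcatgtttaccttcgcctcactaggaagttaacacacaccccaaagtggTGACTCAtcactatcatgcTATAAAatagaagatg
Mmp3: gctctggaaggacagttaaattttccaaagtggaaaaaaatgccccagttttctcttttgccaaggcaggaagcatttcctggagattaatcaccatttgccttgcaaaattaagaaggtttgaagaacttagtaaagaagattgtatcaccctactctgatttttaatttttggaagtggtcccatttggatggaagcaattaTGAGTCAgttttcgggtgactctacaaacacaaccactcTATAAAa
Mmp10: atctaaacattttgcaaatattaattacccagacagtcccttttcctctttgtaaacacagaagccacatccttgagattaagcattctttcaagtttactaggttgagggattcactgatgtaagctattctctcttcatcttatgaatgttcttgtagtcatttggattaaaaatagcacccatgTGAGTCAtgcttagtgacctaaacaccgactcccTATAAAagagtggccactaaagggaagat
All 3 hold a single AP-1 match followed downstream by a single TATA box, with the AP-1 match beginning 35 bases before the start in Mmp13, 46 in Mmp3 and 63 in Mmp10.

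The next 3 belong to genes whose start-site region fell: Col6a1 chr10:76726045-76726294 on the minus strand, Col6a3 chr1:90843972-90844221 on the minus strand and Adamts2 chr11:50601835-50602084 on the plus strand. The first pair encode chains of the beaded-filament collagen VI and Adamts2 encodes the procollagen N-proteinase.
Col6a1: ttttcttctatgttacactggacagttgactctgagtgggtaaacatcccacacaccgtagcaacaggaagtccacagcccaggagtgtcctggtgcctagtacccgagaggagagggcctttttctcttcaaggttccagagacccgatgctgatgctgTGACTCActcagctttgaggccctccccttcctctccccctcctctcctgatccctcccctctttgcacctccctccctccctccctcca
Col6a3: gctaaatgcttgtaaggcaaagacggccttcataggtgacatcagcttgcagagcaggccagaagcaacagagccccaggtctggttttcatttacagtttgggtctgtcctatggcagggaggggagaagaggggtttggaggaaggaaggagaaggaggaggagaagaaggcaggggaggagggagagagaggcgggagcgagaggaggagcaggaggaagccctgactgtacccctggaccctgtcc
Adamts2: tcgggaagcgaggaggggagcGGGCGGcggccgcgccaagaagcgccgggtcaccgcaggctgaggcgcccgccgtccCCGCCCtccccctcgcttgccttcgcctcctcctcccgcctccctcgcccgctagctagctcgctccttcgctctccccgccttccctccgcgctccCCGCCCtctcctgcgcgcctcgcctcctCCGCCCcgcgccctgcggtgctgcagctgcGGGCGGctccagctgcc
Col6a1 held 1 AP-1 match, Col6a3 none of the 4 motifs, and Adamts2 held 5 GC boxes in a window of 78% G and C.

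The last pair are inhibitors whose start-site regions moved in opposite directions, Timp1 chrX:20869916-20870165 on the plus strand and Timp3 chr10:86300162-86300411 on the plus strand.
Timp1: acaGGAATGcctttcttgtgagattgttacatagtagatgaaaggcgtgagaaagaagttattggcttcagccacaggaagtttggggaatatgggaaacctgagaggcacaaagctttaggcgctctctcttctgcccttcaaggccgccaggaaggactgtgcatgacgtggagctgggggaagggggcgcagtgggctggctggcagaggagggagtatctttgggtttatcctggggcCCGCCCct
Timp3: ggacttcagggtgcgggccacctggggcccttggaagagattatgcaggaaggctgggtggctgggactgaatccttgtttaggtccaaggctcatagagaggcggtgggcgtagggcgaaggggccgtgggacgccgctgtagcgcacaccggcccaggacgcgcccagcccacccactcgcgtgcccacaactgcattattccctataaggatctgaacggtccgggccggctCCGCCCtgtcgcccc
Timp1 held a TEAD match and a GC box, and Timp3 a GC box. Of 60 RefSeq promoters found for 54 member genes, 6.67% held the AP-1 letters, against 6.75% of all 32851 promoters, and the 4 genes were Mmp13, Mmp3, Mmp10 and Col6a1. The TATA box was in 13.3% of member promoters and 12.4% of all, the TEAD site in 8.33% and 12.6%, and the GC box in 70% and 32.7%. Member promoters had a median G and C content of 62%, against 52.4% for all promoters. These sets are unlike, since every member gene has an accessible region here. The 32851 promoters belong to 27025 genes, whereas only 11180 genes have a region. The differences are therefore not read as particular to matrix genes. A match describes letters only and does not show that a factor binds there.

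The summed normalised reads of a library over all regions lay between 6433944 and 6548535, which reflects the authors' scaling, and read depth in regions was estimated at 5340000, 3710000 and 6840000 for active replicates 1 to 3 and at 8960000, 8400000 and 7330000 for inactive replicates 1 to 3. All 3 active libraries were therefore shallower than all 3 inactive ones, and low regions carry more counting error in the active group. Across the 146 matrix regions, log values correlated at 0.968 to 0.976 between active libraries, 0.984 to 0.989 between inactive libraries and 0.905 to 0.93 between groups, across regions that are not independent. All 10 fibroblast marker genes had regions, 20 in all, of which 5 were higher and 12 lower (25% and 60%, beside 22.5% and 36.0% of all tested regions with a symbol) and 0 higher and 11 lower after the centring described further on, with a summed level of 3214 to 3399 in active and 4073 to 4171 in inactive libraries. Of the epithelial markers 1 of 6 had a region (Krt8, 188 to 215 in active and 158 to 182 in inactive libraries), and of the leukocyte markers 1 of 5 (Ptprc, 94 to 105 in active and 103 to 120 in inactive libraries). Of the endothelial markers 1 of 5 had a region (Kdr, 74 to 82 in active and 5 to 9 in inactive libraries), and no region of the 4 muscle markers is analysed here. The fibroblast list, which shares Col1a1 and Col1a2 with the matrix set, was thus lower and Kdr higher in the same libraries as the matrix changes below, and their part in the results was not tested.

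Matrix regions were more often lower than higher in the active libraries. All 146 passed the filter on low values, a mean of at least 10 over the 6 libraries, and 19 (13%) were higher and 65 (44.5%) lower at an adjusted p under 0.05 (limma on log2(value + 1), Benjamini-Hochberg over all 51253 tested regions), while 62 did not pass. Of all tested regions 30.9% were higher and 29.2% lower, and of tested regions with a gene symbol 22.5% were higher and 36.0% lower. The median log2 fold change was -0.18 for matrix regions, -0.10 for regions with a gene symbol and -0.02 for all tested regions. Summed over the 146 regions, the libraries held 19908, 20345 and 20314 normalised reads in the active group, against 23007, 23198 and 23714 in the inactive group. No active library reached the lowest inactive sum. In 89 regions (61%) the groups did not overlap, next to 62.3% of all tested regions, so in this count the matrix regions stood near the background. Of 48 matrix genes listed by name, 39 are analysed here, and 8 of their 77 regions were higher and 39 lower.

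A change of at least 2-fold on this scale was called higher in 4 of the 146 matrix regions, at Mmp9, Plod2, Col9a3 and Col7a1. Such calls made up 13.4% of all tested regions and 4.84% of those with a symbol, both above the matrix share. It was called lower in 8 of the 146, at Loxl1 (3 regions), Nid2, Adamts2, Mmp27, Col23a1 and Timp3. That share lay between the 6.86% of all tested regions and the 3.25% of those with a symbol. Loxl1, Col4a2 and other single regions appear in the plot of single regions by library, and regions named in the text beyond the naming rule were picked after their values were seen.

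**Figure D1:**
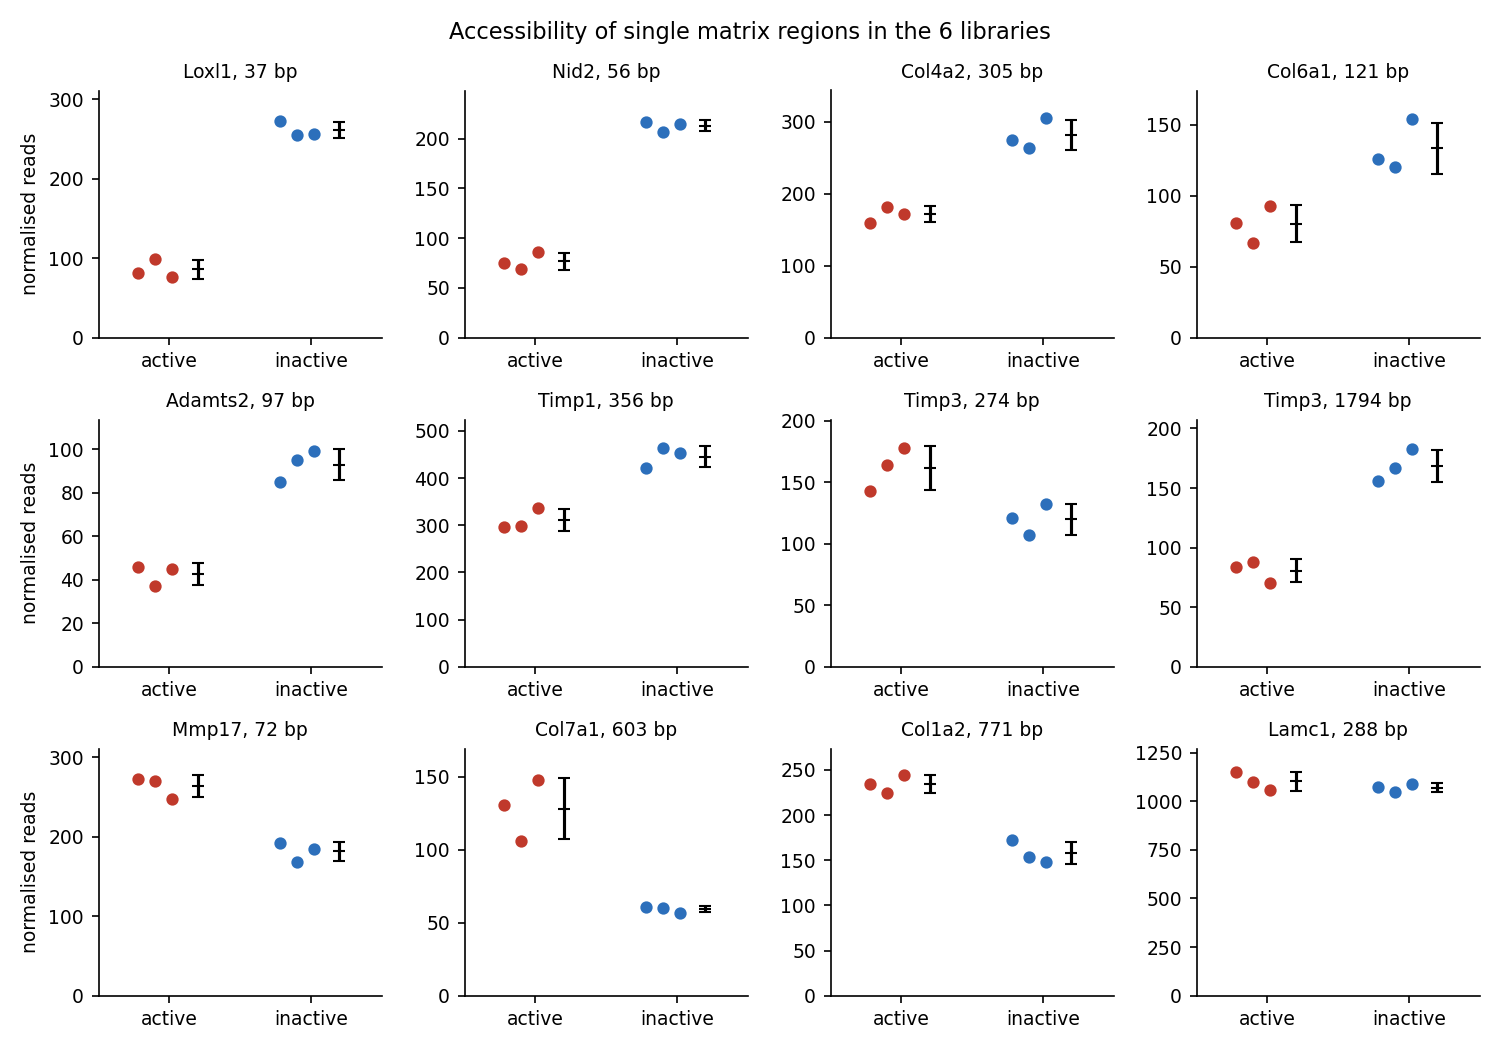
Normalised reads per region (vertical axis, from 0) for 12 matrix regions named by gene and distance to the start site, with the 3 active libraries left in red and the 3 inactive libraries right in blue, and black bars for mean and SD. At Loxl1 the active libraries lie between 77 and 99 and the inactive ones between 255 and 273, whereas at Lamc1 the groups overlap.

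The 76 regions centred within 1000 bp of a start site comprised 6 higher and 36 lower (47.4%), against 21.0% and 37.6% of the 9650 tested symbol-bearing regions at that distance. The 70 regions farther away, up to 5350 bp, comprised 13 higher and 29 lower, against 25.8% and 32.5%. Distances are those of the deposited table and matched the gene start to within 2 bp in all 146 cases. Region widths ran from 153 to 1919 bp with a median of 564 bp. Per kilobase, the most accessible matrix regions were one 5143 bp upstream of Sparc (607 normalised reads per kb in active and 688 in inactive libraries), one inside Mmp14 (569 and 581) and the Lamc1 start (574 and 557).

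Among structural proteins, 10 of 75 regions were higher and 34 lower, with a median log2 fold change of -0.19. Within 1000 bp of the start site 3 of 36 were higher and 22 lower (61.1%), beside 37.6% lower among tested symbol-bearing regions at that distance. Farther away 7 of 39 were higher and 12 lower (30.8%, beside 32.5%). Before the centring described further on, the other classes did not share this split. Near the start 3 of 9 crosslinking (33.3%) and 11 of 31 protease regions (35.5%) were lower, and farther away 5 of 7 and 12 of 24. After centring, 47.2% of structural regions near the start and 20.5% farther away were lower. Crosslinking regions then went the same way (44.4% and 28.6%), on few regions, and protease regions did not (25.8% and 41.7%). Tested regions with a symbol stood at 24.6% and 25.3%. The library sums for the class were 11192, 11375 and 11256 in the active group, against 12493, 12739 and 13075 in the inactive group. Counts of the smaller groups that follow stand beside 22.5% higher and 36.0% lower among tested regions with a symbol.

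Basement membrane genes held the largest fall of the class. Nid2 encodes nidogen-2, a linker between laminin and collagen IV networks, and its start-site region (chr14:19800808-19801745) had 75, 69 and 86 in active libraries, against 217, 207 and 215 in inactive ones. The groups were far apart, with an inactive mean 2.78 times the active mean (log2 fold change -1.47, SE 0.11, adjusted p = 5.04e-15). Nid1, for the related nidogen-1, had 52, 104 and 57 in active libraries, against 126, 124 and 104 in inactive ones in a region 1180 bp inside the gene, where active replicate 2 alone reached the inactive range (log2 fold change -0.79, SE 0.18, adjusted p = 8.65e-04). Collagen IV forms the sheet of the basement membrane. The Col4a1 and Col4a2 genes lie head to head, and the region at the Col4a2 start (chr8:11361739-11363261) had 160, 182 and 172 in active libraries, against 275, 264 and 305 in inactive ones (log2 fold change -0.71, SE 0.09, adjusted p = 2.17e-09). The neighbouring region assigned to Col4a1 was weak, with 24, 23 and 20 in active libraries, against 37, 40 and 47 in inactive ones (log2 fold change -0.86, SE 0.21, adjusted p = 5.90e-04). Reads between these 2 starts cannot be split between the genes. The 2 other collagens of this group did not pass, Col4a5 at -0.29 (adjusted p = 0.0639) and Col18a1 at -0.17 (adjusted p = 0.179).

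Of 12 regions at laminins, nidogens and perlecan, 1 was higher and 6 lower. Lama5, the alpha5 chain of basement membrane laminins, fell at regions 4571 bp inside the gene (-0.92; 58.3 ± 3.51 in active and 112 ± 13.7 in inactive libraries, SD, n = 3 each) and 2393 bp upstream (-0.52), while its start-site region had 198, 267 and 243 in active libraries, against 232, 219 and 225 in inactive ones and did not pass (adjusted p = 0.604). Both Lamb2 regions, for the beta2 chain, were lower (-0.54 at the start and -0.50 upstream on the log2 scale). The higher region was the start of Lama1, an alpha chain of early embryonic laminin, with only 17, 23 and 31 in active libraries, against 10, 10 and 14 in inactive ones (log2 fold change 0.98, SE 0.30, adjusted p = 0.00484). It lost its call without active replicate 3 (log2 fold change 0.77, adjusted p = 0.056). Lamc1, the shared gamma1 chain, was the most read matrix region and had 1150, 1101 and 1055 in active libraries, against 1072, 1047 and 1090 in inactive ones. Its groups overlapped (log2 fold change 0.04, SE 0.04, adjusted p = 0.418). The 3 regions of Hspg2, for perlecan, lay between -0.15 and 0.03 and did not pass either.

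Collagen VI genes, which encode a filament network next to basement membranes, were lower at all 3 start sites. Col6a1 (chr10:76561647-76562114) had 81, 67 and 93 in active libraries, against 126, 120 and 154 in inactive ones (log2 fold change -0.73, SE 0.13, adjusted p = 5.00e-06). Its neighbour Col6a2 had 144, 157 and 162 in active libraries, against 205, 243 and 216 in inactive ones (log2 fold change -0.52, SE 0.09, adjusted p = 6.86e-06). Col6a3, on another chromosome, had 55, 44 and 67 in active libraries, against 79, 92 and 112 in inactive ones (log2 fold change -0.76, SE 0.15, adjusted p = 4.41e-05). In each of these 3 the highest active library lay below the lowest inactive one. Col6a1 also fell 4300 bp upstream (-0.33), and Col6a3 fell 5350 bp inside the gene (-0.49), whereas its regions at 3548 and 4816 bp stood at -0.04 and -0.03 and did not pass.

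The other minor collagens moved both ways. Col7a1 encodes the anchoring fibril collagen of skin and had 131, 106 and 148 in active libraries, against 61, 60 and 57 in inactive ones upstream of its start (log2 fold change 1.09, SE 0.13, adjusted p = 3.38e-09). The active libraries held 2.16 times the inactive mean. Col9a3, a cartilage collagen chain, had 44, 49 and 50 in active libraries, against 18, 23 and 21 in inactive ones (log2 fold change 1.17, SE 0.21, adjusted p = 5.71e-06), and Col16a1 rose by 0.40 inside the gene while its start-site region at -0.16 did not pass. The start of Col23a1, a membrane collagen, was weakly open and fell, with 7, 16 and 11 in active libraries, against 23, 28 and 28 in inactive ones (log2 fold change -1.21, SE 0.30, adjusted p = 5.62e-04). Col8a1 fell 862 bp upstream (-0.38). With collagen VI counted in, the group held 4 higher and 9 lower of 19 regions. The lower ones were 2 each at Col6a1, Col6a3 and Col12a1 and 1 each at Col6a2, Col23a1 and Col8a1.

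Fibrillar collagens, which form the tensile fibrils of connective tissue, gave 4 higher and 6 lower of 19 regions. Col1a1 and Col1a2 encode the chains of collagen I and moved apart. Col1a1 (chr11:94826906-94828299) had 250, 279 and 230 in active libraries, against 307, 308 and 319 in inactive ones (log2 fold change -0.30, SE 0.08, adjusted p = 9.13e-04), and a region 2451 bp upstream also fell (-0.57). Col1a2 (chr6:4505226-4505944) had 234, 224 and 244 in active libraries, against 172, 154 and 148 in inactive ones (log2 fold change 0.57, SE 0.09, adjusted p = 7.73e-07), and 2 more of its 4 regions were higher, at 0.64 and 0.79. Both genes lay within shifted stretches of their chromosomes, which are described further on. Col3a1 had 38, 28 and 37 in active libraries, against 35, 28 and 26 in inactive ones at its start and did not pass, while regions 2542 and 4717 bp inside were lower (-0.60 and -0.85). The weaker of these lost its call without any single one of active replicates 1 (-0.50) and 2 (-0.37) and inactive replicates 1 (-0.54) and 2 (-0.52). The stronger lost it without inactive replicate 1 (-0.62). Col5a2 at -0.22 and both Col11a1 regions did not pass.

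The elastic fibre and fibronectin group counted 1 higher and 4 lower of 10 regions. Fn1, for fibronectin, the cell-binding glycoprotein of the provisional matrix, had 531, 470 and 492 in active libraries, against 577, 594 and 595 in inactive ones at its start (log2 fold change -0.24, SE 0.06, adjusted p = 4.39e-04). Fbn1, for the microfibril protein fibrillin-1, had 296, 307 and 285 in active libraries, against 370, 366 and 388 in inactive ones (log2 fold change -0.34, SE 0.07, adjusted p = 5.59e-05). Both were small differences that did not overlap between groups. Fbln2 was lower 962 bp inside the gene (-0.46), and Fbln1 was higher 2276 bp upstream (0.45) but lower at its start (-0.34), a call lost without active replicate 2 (-0.26). After centring the upstream region no longer passed (0.10, adjusted p = 0.589), while the start stood at -0.69 (adjusted p = 3.28e-06).

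Matricellular proteins sit in the matrix and modulate cell contact more than they build fibres. Of their 10 regions, at 4 genes, 0 were higher and 7 lower (70%). Of tested regions with a symbol 22.5% were higher and 36.0% lower. Where called, inactive means were at most 1.26 times the active means. After centring on the local shift described further on, 3 of the 10 were lower, 2 at Tnc and 1 at Thbs3, and the Thbs1 and Sparc calls were lost. Tnc, for tenascin C, had 330, 307 and 300 in active libraries, against 378, 373 and 394 in inactive ones at its start (log2 fold change -0.29, SE 0.07, adjusted p = 3.99e-04). Thbs3 fell 970 bp upstream (409 ± 18.4 in active and 505 ± 17.3 in inactive libraries, SD, n = 3 each; log2 fold change -0.30, SE 0.06, adjusted p = 5.29e-05). At the Thbs1 start the values were 349, 313 and 319 in active libraries, against 375, 376 and 375 in inactive ones (log2 fold change -0.20, SE 0.07, adjusted p = 0.0113). Sparc, a collagen-binding glycoprotein, fell by 0.18 on the log2 scale 5143 bp upstream, a call lost without active replicate 2 (-0.13) or inactive replicate 2 (-0.16). Bgn, for the small leucine-rich proteoglycan biglycan and the only one of its family that the rule takes in, had 55, 74 and 58 in active libraries, against 46, 46 and 56 in inactive ones, and did not pass (adjusted p = 0.0806). It was called higher after centring (0.39, adjusted p = 0.0455). Among small leucine-rich proteoglycans outside the rule, Prelp (-1.14 and -1.09), Fmod (-0.54), Ogn (-0.57) and the Aspn start (-2.22) were lower, a second Aspn region did not pass (-0.02), and of 3 Omd regions 1 was lower (-0.41), 1 higher (0.53) and 1 did not pass (-0.15).

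**Figure D2:**
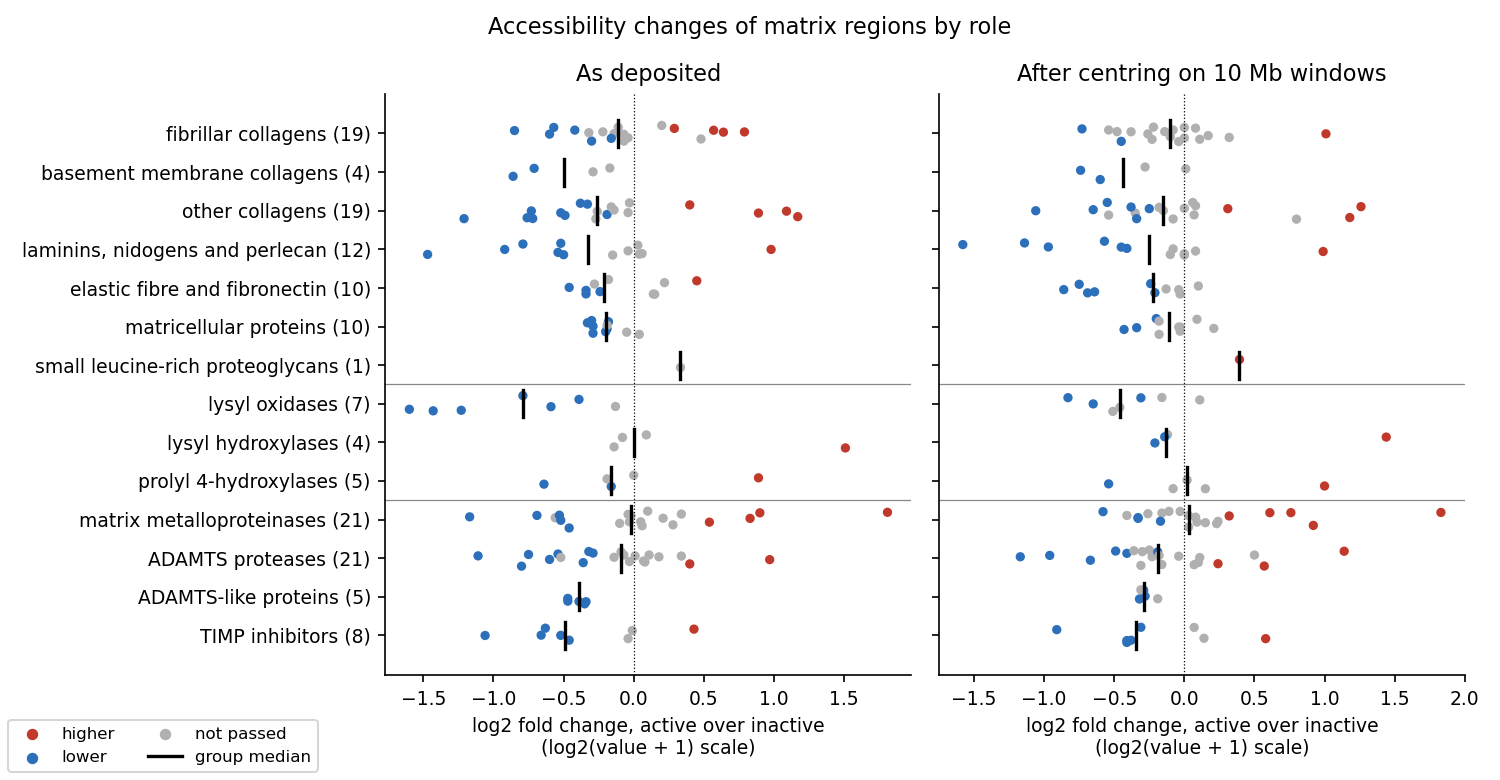
Log2 fold change of each matrix region, active over inactive on the log2(value + 1) scale (horizontal axis), by role (rows, with the number of regions), as deposited on the left and after centring on 10 Mb windows on the right. Red and blue points passed the threshold, grey points did not, and black ticks are group medians, which run from -0.79 for lysyl oxidases to 0.33 for the 1 small proteoglycan on the left.

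Among crosslinking enzymes, 2 of 16 regions were higher and 8 lower, with a median of -0.17, and 6 of the 8 lower regions were at lysyl oxidases. The median was -0.27 without active replicate 1 and -0.25 without inactive replicate 2, and the single higher call left without inactive replicate 2 was that of Plod2. Library sums were 2684, 2716 and 2715 in the active group, against 3292, 3226 and 3308 in the inactive group. Loxl1, a lysyl oxidase that acts on elastin, had the largest fall of the 146 regions at its start (chr9:58220122-58220742), with 82, 99 and 77 in active libraries, against 273, 255 and 257 in inactive ones. Its inactive mean was 3.04 times the active mean (log2 fold change -1.60, SE 0.10, adjusted p = 7.45e-17). The region 4553 bp inside the gene had 91, 60 and 77 in active libraries, against 200, 223 and 188 in inactive ones (log2 fold change -1.43, SE 0.12, adjusted p = 3.58e-13). The region 1988 bp upstream was lower as well (17.3 ± 3.51 in active and 41.7 ± 2.52 in inactive libraries, SD, n = 3 each; log2 fold change -1.23, SE 0.23, adjusted p = 1.07e-05). In all 3 the groups were far apart, and the local shift around Loxl1 was itself strongly negative, as given further on.

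Lox, the founding lysyl oxidase of collagen and elastin, had 353, 315 and 351 in active libraries, against 525, 494 and 518 in inactive ones in a wide region over its start (log2 fold change -0.59, SE 0.06, adjusted p = 2.53e-10). A weak region inside Lox fell too (-0.79), but not without active replicate 3 (-0.45) or inactive replicate 3 (-0.65). Loxl4 had 308, 348 and 330 in active libraries, against 356, 370 and 349 in inactive ones at its start and did not pass (adjusted p = 0.116), while its region 1129 bp upstream fell (-0.39), a call lost without inactive replicate 2 (-0.34).

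Lysyl hydroxylases had 1 higher and 0 lower of 4 regions and prolyl 4-hydroxylases 1 higher and 2 lower of 5. Plod2, the lysyl hydroxylase of collagen telopeptides, had 478, 509 and 442 in active libraries, against 489, 484 and 532 in inactive ones at its start, where groups overlapped (adjusted p = 0.299). A region 4305 bp inside the same gene (chr9:92428428-92428734) had 109, 143 and 135 in active libraries, against 47, 38 and 49 in inactive ones, with an active mean 2.89 times the inactive mean (log2 fold change 1.51, SE 0.14, adjusted p = 5.72e-12). Plod1 at -0.14 and Plod3 at 0.09 did not pass. After centring the starts of Plod2 (-0.14, adjusted p = 0.0484) and Plod3 (-0.21, adjusted p = 0.0137) were lower. Of the catalytic prolyl 4-hydroxylase chains, P4ha1 was lower by a small margin, with 429, 444 and 448 in active libraries, against 488, 488 and 495 in inactive ones (log2 fold change -0.16, SE 0.06, adjusted p = 0.0241). That call was lost without active replicate 1 (-0.14) and without any single inactive replicate (-0.16, -0.16 and -0.15). P4ha2 had 153, 155 and 164 in active libraries, against 171, 147 and 155 in inactive ones, and did not pass. P4ha3 was higher at its start, with 21, 19 and 20 in active libraries, against 9, 8 and 15 in inactive ones (log2 fold change 0.89, adjusted p = 0.0133), and lower 2990 bp inside (-0.64), and the higher call was lost without inactive replicate 2 (0.73, adjusted p = 0.0692).

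Among proteases and their inhibitors, 7 of 55 regions were higher and 23 lower, with a median of -0.10, which was -0.17 without active replicate 2 and -0.16 without active replicate 3. Library sums were 6032, 6254 and 6343 in the active group, against 7222, 7233 and 7331 in the inactive group. No test between the 3 role classes was made. Their shares of lower regions, 45.3% of structural, 50% of crosslinking and 41.8% of protease regions, are given side by side only. Of all tested regions with a symbol 36.0% were lower. Inside the protease class, 23.8% of metalloproteinase and 38.1% of ADAMTS protease regions were lower. The other lower calls of the class were at TIMP inhibitors (62.5% of 8 regions) and ADAMTS-like proteins (100% of 5).

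Matrix metalloproteinases moved both ways, with 4 higher and 5 lower of 21 regions and a median of -0.02. Mmp17, a membrane-anchored metalloproteinase, was the only gene with several regions that were all higher. Its start-site region (chr5:129660744-129661578) had 273, 270 and 248 in active libraries, against 192, 168 and 185 in inactive ones (log2 fold change 0.54, SE 0.08, adjusted p = 7.56e-07), and a region 1986 bp inside rose by 0.83. Mmp14, the membrane-bound activator of pro-MMP2, had 124, 141 and 137 in active libraries, against 112, 142 and 122 in inactive ones at its start and did not pass. Of its 5 regions only the one 2739 bp from the start rose, with 58, 51 and 85 in active libraries, against 27, 42 and 33 in inactive ones (log2 fold change 0.90, SE 0.19, adjusted p = 9.49e-05). Mmp9, gelatinase B, had its only region 4786 bp upstream and at the edge of detection, with 22, 14 and 14 in active libraries, against 3, 2 and 9 in inactive ones (log2 fold change 1.81, SE 0.44, adjusted p = 5.26e-04). Mmp2, gelatinase A, had 23, 19 and 24 in active libraries, against 29, 16 and 20 in inactive ones, which did not pass (adjusted p = 0.868). Mmp28 fell at 3 of 4 regions (log2 fold changes -0.52, -0.46 and -0.53), but stood at -0.04 at its start, and the middle call was lost without active replicate 3 (-0.25) or inactive replicate 2 (-0.36).

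The metalloproteinase cluster of chromosome 9 gave 4 regions, at the 3 promoters printed above and at Mmp27. Mmp3, stromelysin-1, had 86, 55 and 85 in active libraries, against 122, 129 and 110 in inactive ones (log2 fold change -0.69, SE 0.14, adjusted p = 4.37e-05). Mmp27 had 38, 28 and 42 in active libraries, against 90, 71 and 83 in inactive ones (log2 fold change -1.17, SE 0.17, adjusted p = 1.35e-07). Mmp13, collagenase-3, had 35, 14 and 30 in active libraries, against 34, 32 and 45 in inactive ones and missed the threshold (adjusted p = 0.0507), and Mmp10, stromelysin-2, had 27, 21 and 25 in active libraries, against 19, 17 and 21 in inactive ones (adjusted p = 0.243). The AP-1 and TATA letters shared by Mmp3, Mmp10 and Mmp13 thus stood in front of 1 lower region and 2 that did not pass.

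ADAMTS proteases gave 2 higher and 8 lower of 21 regions. Adamts2, which removes the amino-terminal propeptide of fibrillar procollagens, had 46, 37 and 45 in active libraries, against 85, 95 and 99 in inactive ones at its start (chr11:50492537-50493478; log2 fold change -1.11, SE 0.15, adjusted p = 3.48e-08). Adamts7 had 127, 182 and 135 in active libraries, against 240, 202 and 227 in inactive ones (log2 fold change -0.60, SE 0.10, adjusted p = 6.00e-06). Of the aggrecan- and versican-cutting members, Adamts1 fell 1877 bp inside the gene (299 ± 20.7 in active and 437 ± 30.1 in inactive libraries, SD, n = 3 each; -0.54) but not at its start (-0.03). Adamts5 fell at its start (-0.29), and Adamts4 stood at 0.01 and did not pass. Both higher regions were upstream of Adamts14, another procollagen N-proteinase, at 1364 bp (28, 55 and 34 in active libraries, against 17, 19 and 20 in inactive ones) and at 4811 bp (0.40), the second of which lost its call without inactive replicate 1 (0.39) or inactive replicate 3 (0.37). The ADAMTS-like proteins lack the protease domain, and their 5 regions, at Adamtsl3, Adamtsl4 and Adamtsl5, were all lower, with log2 fold changes between -0.47 and -0.34. Of these, Adamtsl5 lost a call at 741 bp without active replicate 3 (-0.38) or either of inactive replicates 2 (-0.39) and 3 (-0.41), and one at 2093 bp without active replicate 2 (-0.23) or either of inactive replicates 1 (-0.35) and 2 (-0.29).

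TIMP inhibitors, with 8 regions at 3 genes, were lower at 5 (62.5%) and higher at 1 (12.5%). Of tested regions with a symbol 36.0% were lower and 22.5% higher. Timp1 (chrX:20735419-20736679) had 296, 299 and 337 in active libraries, against 421, 463 and 453 in inactive ones (log2 fold change -0.52, SE 0.07, adjusted p = 2.25e-08). Timp2 was lower at both of its regions, by 0.63 inside the gene and by 0.66 upstream (153, 180 and 165 in active, against 254, 251 and 285 in inactive libraries). Timp3, the inhibitor that stays bound to the matrix, was higher at its start (chr10:86136192-86136828), with 143, 164 and 178 in active libraries, against 121, 107 and 132 in inactive ones (log2 fold change 0.43, SE 0.11, adjusted p = 7.76e-04). It was lower 1794 bp inside the gene, with 84, 88 and 70 in active libraries, against 156, 167 and 183 in inactive ones (log2 fold change -1.06, SE 0.12, adjusted p = 2.13e-10), and again at 2614 bp (-0.46). The same gene thus held regions of both directions within 3 kb.

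Regions of one gene did not always move together. Of 39 genes with 2 or more regions, 24 had at least 1 lower and no higher region, 6 the reverse, 6 no region past the threshold, and 3 (Fbln1, P4ha3 and Timp3) had both, of which Fbln1 lost its higher call after centring. Every region was lower at 9 genes and every region higher at 1. Regions of a gene share its neighbourhood and are not replicates of each other. The same gene counts were not made over all genes, so none is read as particular to matrix genes. Among tested regions with a symbol 36.0% were lower and 22.5% higher. Col5a1 fell at its start (-0.16) and at 847 bp (-0.42), both near its local shift of -0.31. The start-site call was lost without any single one of active replicates 1 (-0.16) and 3 (-0.15) and inactive replicates 2 (-0.15) and 3 (-0.11), and the other without active replicate 3 (-0.27).

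**Figure D3:**
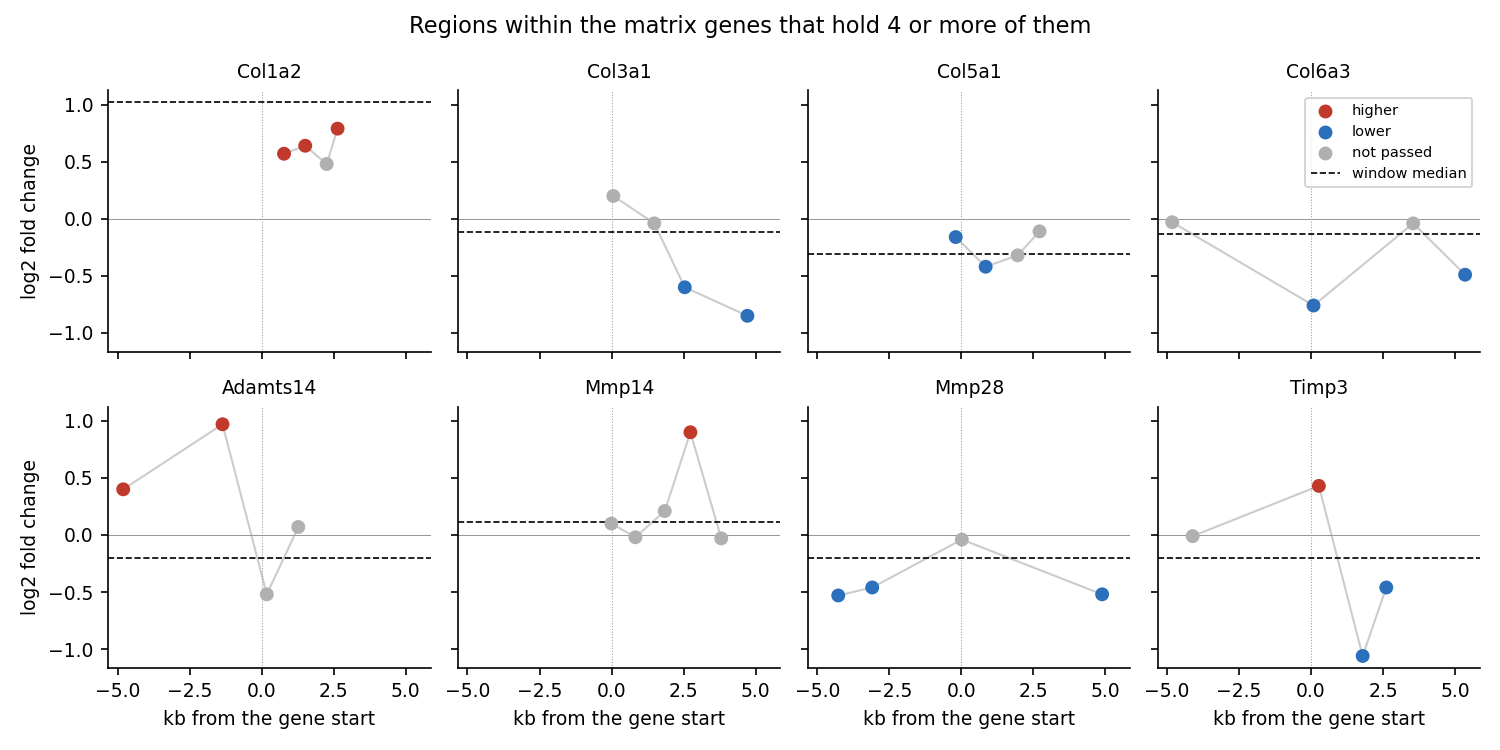
Log2 fold change (vertical axis, active over inactive on the log2(value + 1) scale) of every region of the 8 matrix genes with 4 or more regions, against distance from the gene start in kb (horizontal axis, negative is upstream). Coloured points passed the threshold and dashed lines are the median of the 10 Mb window, so that Timp3 shows 1 higher and 2 lower regions around a window median of -0.20, while Col1a2 lies below its window median of 1.02.

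Normalised reads shifted over whole stretches of chromosomes, and matrix regions partly followed their surroundings. Whether DNA copy number differed between the groups was not tested. The local shift was taken as the median log2 fold change of all tested regions in the same 10 Mb window, which held 45 to 410 regions for the member windows. It ran from -0.78 at Loxl1 to 1.02 at Col1a2, with 102 members in windows below 0 and 44 above 0, and 106 members had the sign of their window. Across the 146 regions the log2 fold change correlated with the window median at Pearson r 0.396 and Spearman rho 0.412, a description over regions that share libraries and windows. A total of 95 members lay below their window median and 50 above it. These counts were not made for other regions, so an even split is not their background. After the centring described next, the median was -0.06 for tested regions with a symbol and -0.16 for matrix regions.

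After each library was centred on its window medians, 17 matrix regions were higher and 49 (33.6%) lower, with a median of -0.16. The centred fit called 26.7% of all tested regions higher and 24.3% lower, and 15.4% and 24.8% of those with a gene symbol. Of the 84 calls, 14 higher and 39 lower ones were kept, 30 were lost, 1 turned round, and 12 regions were called only after centring. Structural proteins went to 6 higher and 25 lower, crosslinking enzymes to 2 higher and 6 lower (3 lower without inactive replicate 3), and proteases to 9 higher and 18 lower. Fibrillar collagens went to 1 higher and 2 lower of 19, and lysyl oxidases to 0 higher and 3 lower of 7. Elastic fibre and fibronectin genes went to 0 higher and 6 lower of 10. Other collagens, collagen VI included, went to 3 higher and 6 lower of 19. Lysyl hydroxylases went to 1 higher and 2 lower of 4 and prolyl 4-hydroxylases to 1 higher and 1 lower of 5. ADAMTS-like proteins went to 0 higher and 3 lower of 5. Metalloproteinases went to 5 higher and 4 lower of 21, and ADAMTS proteases to 3 higher and 6 lower of 21.

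**Figure D4:**
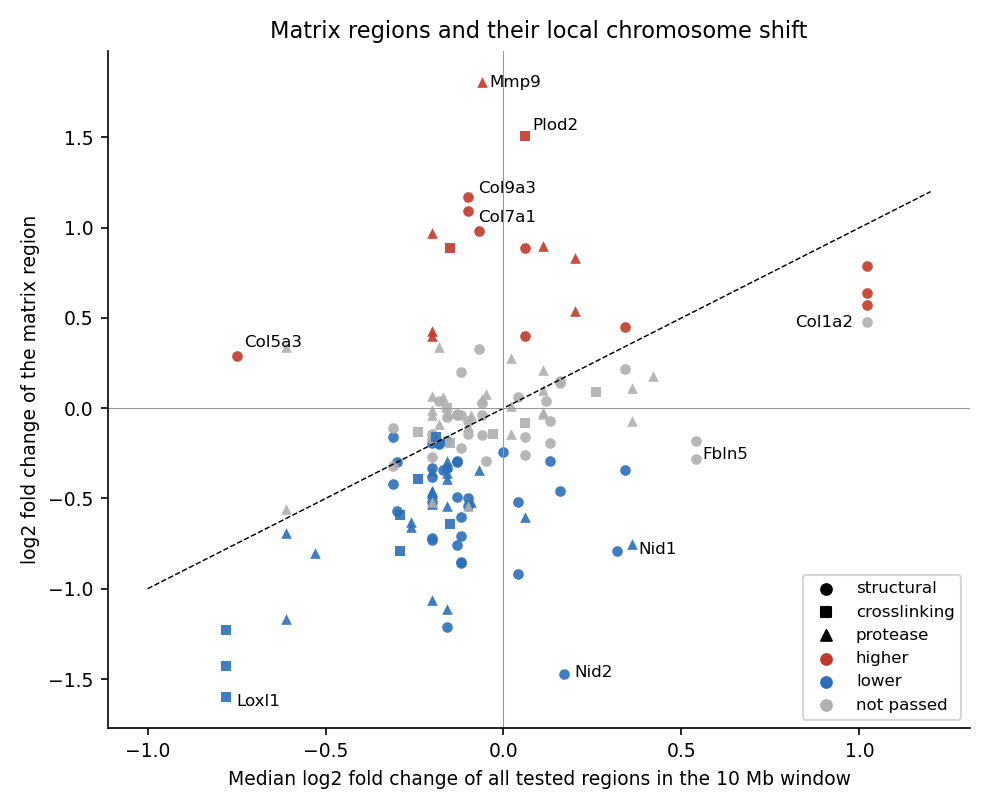
Log2 fold change of each of the 146 matrix regions (vertical axis) against the median log2 fold change of its 10 Mb window (horizontal axis), active over inactive. The dashed line marks equality, shape gives the role class and colour the call, and Nid2 lies far below a window median of 0.17 while Col5a3 lies far above one of -0.75.

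The collagen I genes stood in windows shifted in opposite directions. The window of Col1a1 on chromosome 11 stood at -0.30, and its start-site region stood at 0.00 after centring (adjusted p = 0.964). The window of Col1a2 on chromosome 6 stood at 1.02, and the region that was higher by 0.57 was lower by 0.45 relative to it (adjusted p = 6.97e-05). The other Col1a2 regions turned to -0.38, -0.54 and -0.23 and did not pass. Mmp3, in a window at -0.61, was left at -0.11 and lost its call, whereas Mmp10 in the same window was higher at 0.92 (adjusted p = 0.00212), Mmp27 stayed lower at -0.58 and Mmp13 stood at 0.03.

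Loxl1 lay in the lowest member window, and its fall was smaller relative to that window: the start-site region stood at -0.83 (adjusted p = 1.44e-08) and the region inside the gene at -0.65 (adjusted p = 1.60e-05), while the upstream one at -0.46 did not pass (adjusted p = 0.0839). Lox kept its start-site call at -0.31. Nid2 and Nid1 lay in windows above 0 and fell further relative to them, to -1.58 (adjusted p = 2.71e-15) and -1.14 (adjusted p = 2.50e-05). Fbln5, an elastic fibre protein, had 135, 122 and 135 in active libraries, against 159, 132 and 154 in inactive ones at its start. Neither of its regions passed as deposited, and both were lower after centring on a window at 0.54 (-0.75 and -0.86). Adamts6, in a window at 0.36, likewise fell to -1.17 and -0.49 at 2 of its 3 regions. The uncentred call at Adamts6 (-0.75) was lost without active replicate 3 (-0.61) or inactive replicate 1 (-0.71).

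Col5a3 rose more against its surroundings than as deposited. Col5a3, a minor fibrillar collagen chain, had 148, 143 and 122 in active libraries, against 111, 118 and 107 in inactive ones in a window at -0.75, which left it higher by 1.01 (adjusted p = 5.74e-10). Its uncentred call (0.29, adjusted p = 0.0207) was lost without any single one of active replicates 1 (0.24) and 2 (0.26) and inactive replicates 1 (0.29) and 3 (0.26). Plod2 at 4305 bp (1.44), Col7a1 (1.18), Col9a3 (1.26), Mmp9 (1.83), Mmp17 (0.32 at its start) and Timp3 (0.58 at its start) kept their direction and call. On the lower side, Col4a2 (-0.60), the 3 collagen VI start sites (-0.55, -0.34 and -0.65), Adamts2 (-0.96), Timp1 (-0.41) and Tnc (-0.43) did so too.

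By chromosome, the 14 matrix regions of chromosome 11 held 0 higher and 11 lower (78.6%), where 58.3% of all tested symbol-bearing regions of that chromosome were lower, and 6 lower remained after centring (42.9%, against 17%). The 18 on chromosome 9 held 3 higher and 11 lower (61.1%, against 63.9% of that chromosome). After centring they held 4 higher (22.2%, against 13%) and 7 lower (38.9%, against 28%). The 17 on chromosome 10 held 3 higher and 9 lower (52.9%, against 51.5%). After centring they held 4 higher (23.5%, against 15.1%) and 5 lower (29.4%, against 26.8%). Chromosome 6, where 47.7% of symbol-bearing regions were higher and 24.3% lower, had 3 higher and 1 lower of 7 matrix regions. After centring it had 0 higher (against 16.2%) and 2 lower (28.6%, against 35%). The 14 on chromosome 4 held 2 higher and 1 lower (7.14%, against 20.4%). After centring they held 1 higher and 3 lower (21.4%, against 22.1%). The 13 on chromosome 2 held 2 higher and 7 lower (53.8%, against 50.6%), and 3 lower after centring (23.1%, against 21.7%). The 13 on chromosome 1 held 0 higher and 5 lower (38.5%, against 24.9%), and 5 lower after centring (38.5%, against 32.6%). The remaining chromosomes are not listed. On chromosomes 2, 9 and 10 the lower share of matrix regions before centring thus stood near that of the chromosome.

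Matrix genes outside the rule, such as latent TGF-beta binding proteins, matricellular CCN proteins, collagen chaperones, transglutaminase and other proteoglycans, moved both ways. Of 89 listed genes 72 had a region, and of 115 regions 34 (29.6%) were higher and 45 (39.1%) lower, with a median of -0.07 and with 24 higher and 34 lower after centring. Beside these stand 22.5% higher and 36.0% lower among tested regions with a symbol, and 30.9% and 29.2% among all tested regions, so nothing particular to the list is read from them. All 3 regions of Bmp1, the procollagen C-proteinase, were higher, the largest at 3561 bp with 108, 106 and 124 in the active libraries, against 20, 27 and 25 in inactive ones (log2 fold change 2.19, SE 0.17, adjusted p = 9.25e-15). Ltbp3 was lower at all 3 regions, with 32, 16 and 30 at its start in active libraries, against 83, 93 and 85 in inactive ones (-1.76, SE 0.19, adjusted p = 4.45e-10). The transglutaminase Tgm2, which crosslinks matrix proteins by another chemistry than the lysyl oxidases, was higher at both of its regions (1.27 and 0.72). Serpinh1, the collagen chaperone HSP47, fell by 0.26 on the log2 scale at its start and did not pass after centring (-0.16, adjusted p = 0.176).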

How the data were processed

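ATAC-seq libraries of 50000 NIH3T3 cells each were made with Tn5 and sequenced paired-end, per the labels' protocols. Reads were handled with STAR 2.7.11a, Trimmomatic 0.39, featureCounts, Picard 3.1.1 and DESeq2 1.36.0, against mm39, per the submitters' processing notes, which list names without roles. Not given in the sources used here are the peak caller, how regions were merged and whether reads were shifted for Tn5. Each deposited value is a score, namely the reads of a region after the authors' division by a library size factor and rounding, as near-equal totals and the uneven use of low whole numbers show (some are never seen in active replicates 1 and 2). Read depth (3710000 to 8960000 per library) was estimated in each library from which low whole numbers were under- or over-used. Reads were not recovered exactly, so no count model was run.

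The log2(value + 1) values were fitted in R 4.3.3 by limma 3.58.1 (trend and robust settings), without covariates, over 51253 regions with a mean of at least 10, with Benjamini-Hochberg adjustment over all of them and a threshold of 0.05. Log2 fold changes understate those of low regions. For the local shift, each library had the median deviation of its 10 Mb window subtracted before the same fit. Motifs were searched on both strands in RefSeq promoters. Other steps used pandas 2.3.3, numpy 2.4.6 and matplotlib 3.10.9 under Python 3.11.15.

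Named regions were, per role class, up to 6 higher and 6 lower called regions of different genes with the largest change among those at or above the median value, the region nearest the start site for 48 listed matrix genes, all regions of genes with 4 or more, and up to 5 each way with the largest centred change. Members and lists were chosen with earlier results of these data known. Regions named beyond the rule were picked after their values were seen. Alternatives were another pseudocount, filters, normalization and variance model, a replicate block, other windows and leaving out each library.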

Additional observations from a re-analysis of the deposited data

How the results depend on the processing

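Of the 84 calls at matrix regions, 55 held under each of the 12 alternatives other than centring that tested the region. Another 29 were lost under at least 1, 26 of these when 1 library was left out, and 0 changed sign. Regions below a mean of 50 were not tested under that filter, and their calls are not counted as lost there. Limma without trend and robust settings lost 22, quantile normalization 9 and leaving out a library 8 to 17, and a pseudocount of 5 or no filter lost 0. A mean of at least 50, which leaves 28986 regions by construction, gave 11 higher matrix regions (structural 6, crosslinking 1, protease 4) and 5 lower crosslinking regions, with medians of -0.19 over matrix, -0.14 over crosslinking and -0.29 over protease regions. Quantile normalization moved the median of all regions to -0.07 and gave 1 higher crosslinking region and medians of -0.21 (matrix), -0.22 (structural), -0.26 (crosslinking), -0.21 (protease) and -0.16 (window medians of members). Limma without trend and robust settings gave 4 lower crosslinking regions, and a pseudocount of 5 gave a window median over members of -0.12, against -0.13. Centring gave 6 higher structural regions and medians of -0.16 (matrix), -0.15 (structural) and -0.17 (protease). Among regions called with or without centring, it turned the sign at Col1a1 (0.00), Col1a2 (-0.45, -0.38 and -0.23), Col5a1 (0.11), Plod3 (-0.21) and P4ha1 (0.02). The cause of these differences was not tested. Leaving out 1 library gave 1 to 2 higher and, after centring, 3 to 6 lower crosslinking regions, the lowest values without inactive replicate 2 and without inactive replicate 3. It gave medians between -0.20 and -0.17 (matrix), -0.22 and -0.19 (structural), -0.27 and -0.14 (crosslinking), -0.17 and -0.09 (protease) and -0.14 and -0.12 (window medians of members). With 5 or 20 Mb windows, or with matrix genes left out of the window median, the centred fit gave 16 to 18 higher and 46 to 52 lower matrix regions. Same-numbered libraries did not deviate together (correlations 0.00137, -0.006 and -0.0162). This measure could miss a weak pairing, and the main fit used the replicate numbers as names only. With the replicate block, 19 matrix regions were higher and 65 lower, and centred with the block 17 and 48, and 1 call was lost (Col12a1 at 233 bp, adjusted p = 0.0545). Depth limits the weak regions most, since the active libraries were the shallower ones.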
